A study of Mus musculus with 30 samples.

Results

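The mitochondrial ribosomal protein genes were taken as every row of the deposited mouse expression table whose symbol began with Mrpl or Mrps followed by a number, and symbols on more than 1 row were left out. The rule found 77 genes among the table's 24888 rows, of which 48 carried an Mrpl symbol and 29 an Mrps symbol. All 77 reached 1 FPKM (fragment counts scaled to transcript length and library size) in at least 2 libraries and were therefore among the 11759 genes tested. By the known structure of the ribosome, 50 encode proteins of the large subunit, 26 encode proteins of the small subunit and 1 encodes a protein outside the ribosome.

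RNA was measured in 30 libraries of CD11b-positive cells, which were isolated with magnetic beads from the lumbar spinal cord of C57BL/6J mice after myelin removal, a selection that enriches microglia. Each injury group had 2 libraries. The sciatic nerve was cut in SNT (sciatic nerve transection), sampled 1, 2, 4 or 7 dpi (days after injury). CCI, a chronic constriction injury, was sampled 2 or 7 dpi, and SNI, a spared nerve injury, only 7 dpi. Of the morphine libraries, 4 followed a fixed and 3 an escalating regimen. The 9 controls were 4 libraries after saline on the fixed regimen, 3 after saline on the escalating regimen, and 2 from naive mice with neither treatment nor injury. The labels gave no dose, age or sex, and they did not say whether a library came from 1 mouse or from several, so the p-values measure the spread between these libraries.

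Mitochondria carry their own ribosome, which translates the few proteins encoded by mitochondrial DNA, all of them core subunits of the respiratory chain and ATP synthase. Its RNA comes from mitochondrial DNA, but its proteins are encoded in the nucleus, made in the cytosol and imported. Part of them have counterparts in the bacterial ribosome, and the rest were added during the evolution of mitochondria.

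The counterpart group held 44 of the 77 genes and the mitochondria-specific group held 31, while Mrpl55 and Mrps36 were assigned to neither. Some symbols do not name the subunit. Mrps30 and Mrps18a encode proteins that sit in the large subunit, and Mrps36 encodes a small protein now placed in the alpha-ketoglutarate dehydrogenase complex. In the GENCODE vM21 annotation of the GRCm38 mouse genome (mm10, the build named in the submitters' processing notes), the genes lay on 17 chromosomes, and the longest protein-coding transcript of each measured between 463 and 7300 bases, with a median of 1316. Exons of 32 of the 77 genes overlapped an exon of another gene. One such pair was made of 2 members, the large-subunit gene Mrpl46 and the small-subunit gene Mrps11, which overlap head to head on opposite strands of chromosome 7. The library method, Smart-Seq2, does not mark strand, so reads from such overlaps cannot be told apart.

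The region upstream of these genes is shown for the 4 members that passed the test under fixed morphine and for Mrpl52, the member with the highest mean level. Each window runs 5′ to 3′ on the gene's own strand from 150 bases before the RefSeq transcript start to 30 bases after it, on GRCm38.p6. Capitals mark matches on either strand to 3 motifs: CCGGAAG (the ETS family, which includes GABP), GCGCA followed after any 1 base by GCGC (NRF1), and AAGATGGC (YY1). The windows are chr19:45006413-45006592 (minus strand) for Mrpl43, chr16:92058186-92058365 (plus strand) for Mrps6, chr3:94443186-94443365 (plus strand) for Mrpl9, chr13:99344636-99344815 (plus strand) for Mrps27 and chr14:54426759-54426938 (plus strand) for Mrpl52.
Mrpl43: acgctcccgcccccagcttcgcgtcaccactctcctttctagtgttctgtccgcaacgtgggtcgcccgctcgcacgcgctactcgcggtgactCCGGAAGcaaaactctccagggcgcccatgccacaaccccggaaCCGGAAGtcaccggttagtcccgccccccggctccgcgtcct
Mrps6: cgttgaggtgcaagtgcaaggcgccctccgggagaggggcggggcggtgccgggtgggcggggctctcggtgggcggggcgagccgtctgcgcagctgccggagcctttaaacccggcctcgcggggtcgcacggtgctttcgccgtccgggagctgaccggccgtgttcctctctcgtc
Mrpl9: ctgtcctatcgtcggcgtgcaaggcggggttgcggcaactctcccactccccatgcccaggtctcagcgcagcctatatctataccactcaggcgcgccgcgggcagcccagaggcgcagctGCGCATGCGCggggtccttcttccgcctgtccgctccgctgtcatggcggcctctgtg
Mrps27: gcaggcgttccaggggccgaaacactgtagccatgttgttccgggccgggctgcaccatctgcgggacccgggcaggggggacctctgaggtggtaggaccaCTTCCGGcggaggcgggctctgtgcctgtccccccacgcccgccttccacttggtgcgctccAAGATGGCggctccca
Mrpl52: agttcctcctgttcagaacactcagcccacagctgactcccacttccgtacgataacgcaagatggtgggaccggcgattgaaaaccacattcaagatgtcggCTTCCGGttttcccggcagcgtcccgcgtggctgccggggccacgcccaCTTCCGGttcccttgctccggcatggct

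The Mrpl43 and Mrpl52 windows each held 2 ETS matches. Mrpl9 held 1 NRF1 match, which reads the same on both strands, Mrps27 held an ETS and a YY1 match, and Mrps6 held no match to the 3 motifs. A RefSeq window from 250 bases before to 50 bases after the start was found for 68 of the 77 genes. Of these 68, 25 (36.8%) held the ETS motif, against 20.9% of the tested genes with a window and 9.93% of all 27025 genes with one. NRF1 was matched in 13 (19.1%), against 12.1% of tested genes and 5.19% of all genes. YY1 was matched in 12 (17.6%), against 5.64% of tested genes and 3.19% of all genes. At least 1 of the 3 motifs was present in 42 of the 68, and the share of tested or of all genes with any of the 3 is not given here. These are matches of letters and not measured binding.

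Mean levels of the members over the 30 libraries ran from 2.53 FPKM for Mrpl19 to 63.1 FPKM for Mrpl52, with a median of 15.4 FPKM, against a median of 6.60 FPKM over all tested genes. A mean of at least 5 FPKM was reached by 72 of the 77 genes and a mean of at least 10 FPKM by 59. The highest means after Mrpl52 were those of Mrps21 at 49.7 FPKM, Mrpl23 at 47.0 FPKM, Mrpl42 at 41.3 FPKM and Mrpl33 at 39.2 FPKM. Mrpl23 encodes a protein that lines the exit of the peptide tunnel in bacteria, and Mrps21, Mrpl23 and Mrpl33 have bacterial counterparts. At the low end stood Mrpl19, Mrpl1, Mrps25, Mrpl35 and Mrps31, with means of 2.53, 2.99, 3.78, 4.48 and 4.83 FPKM. Mrpl1, Mrpl19, Mrps10 and Mrps31 were each listed at 0 in 1 library, where a 0 may be a failed estimate as well as an absence of reads.

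**Figure D1:**
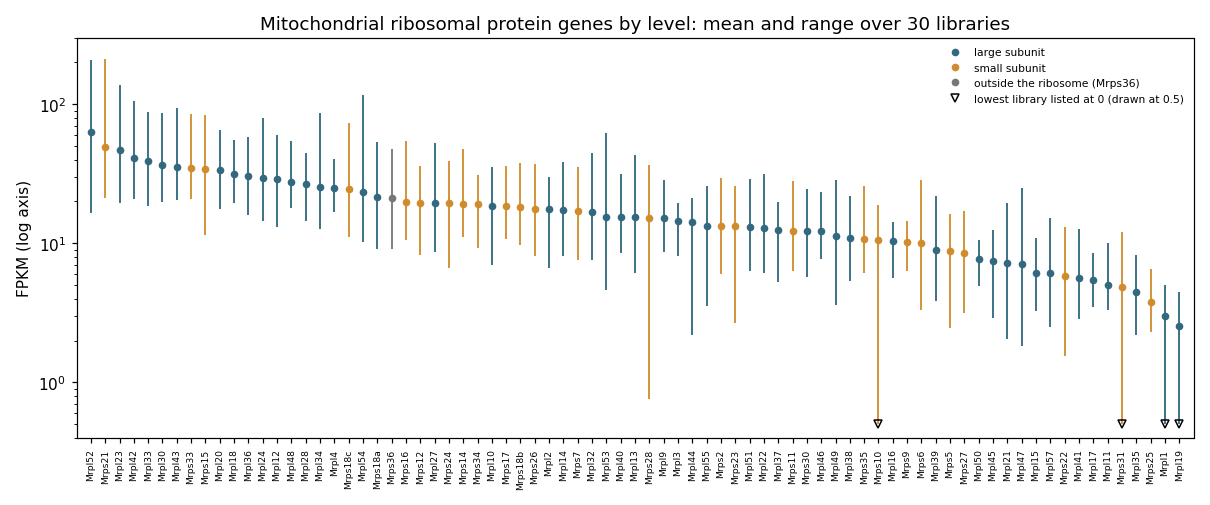
Points give the mean FPKM of each of the 77 genes over 30 libraries on a log axis, and lines run from the lowest to the highest library, coloured by subunit. Levels fall gradually between Mrpl52 at 63.1 FPKM and Mrpl19 at 2.53 FPKM, and large- and small-subunit genes are mixed along the order.

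The members differed in how steady they were. Among genes averaging 5 FPKM or more, Mrpl52 varied most across libraries, between 16.6 FPKM in naive replicate 1 and 208 FPKM in SNT 2 dpi replicate 2, with a standard deviation of 0.92 in log2(FPKM + 1). Mrps10, Mrps28, Mrps6 and Mrps21 came next. Mrps21 ranged between 21.0 and 212 FPKM. Mrpl50, Mrpl17, Mrpl4, Mrps9 and Mrpl3 varied least, with a standard deviation of 0.24 for Mrpl50 and 0.25 for Mrpl17. Over the 30 libraries, the median correlation between pairs of members was 0.357 in log2(FPKM + 1), against 0.121 between pairs of tested genes. The points of these correlations share their library's depth and scaling. The tested genes were not matched to the members in level, and their median mean was 6.60 FPKM, against 15.4 FPKM for the members.

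The mean of log2(FPKM + 1) over the 77 genes ran from 3.38 in naive replicate 1 to 4.44 in SNT 2 dpi replicate 2. It spanned 4.07 to 4.31 in the SNT 1 dpi libraries, 3.55 to 3.68 in SNI, 3.60 to 4.11 after fixed morphine and 3.46 to 3.84 after escalating morphine, against 3.38 to 4.41 in the 9 controls. Apart from the SNT 2 dpi library at 4.44, every injury and morphine library lay inside the range of the controls.

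**Figure D2:**
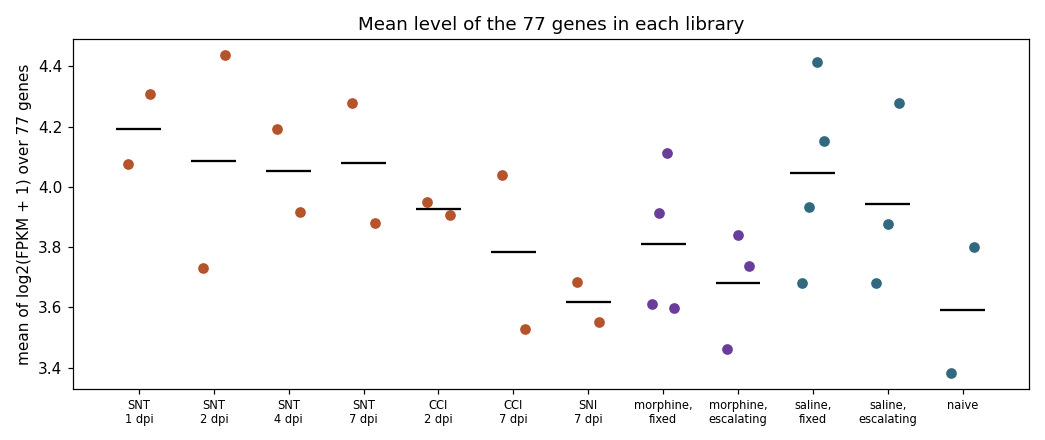
Each point is 1 library's mean of log2(FPKM + 1) over the 77 genes, and bars mark the mean of each group. The libraries span 3.38 to 4.44, and the controls alone span 3.38 to 4.41.

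Several facts of the libraries bear on these genes. Between 8005 and 10427 genes reached 1 FPKM in a library, and the fewest were found in SNT 1 dpi replicate 1, SNT 7 dpi replicate 1 and SNT 2 dpi replicate 2. Depth was not given with the FPKM values. In each library, the commonest product of FPKM and transcript length was taken over 5547 genes with 1 annotated transcript. If read as 1 fragment, this unit put the libraries at about 1730000 to 21500000 fragments. Only 36.5% to 55.5% of low products fell within 0.05 of a whole multiple of the unit, where 10% would without steps. The unit was chosen from these same values, which raises that share, so the 10% is not a fair baseline for it. Read this way, the fixed morphine libraries had 10200000 to 16900000 fragments and the fixed saline libraries 1980000 to 8550000, without overlap. The microglial genes P2ry12 and Tmem119 were high in every library, with lowest values of 562 and 262 FPKM. Neutrophil genes were present as well, and S100a8 ran from 326 to 30884 FPKM, with a median of 2453 FPKM. The highest value among monocyte and border macrophage markers was 304 FPKM of Ly6c2, and among oligodendrocyte markers 181 FPKM of Mbp.

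Under fixed morphine against fixed saline, 4 of the 77 genes (5.19%) passed the test, against 18.0% of all genes tested. The test was limma's moderated test on log2(FPKM + 1) over all 11759 genes, with Benjamini-Hochberg adjustment and a threshold of 0.05. Mrpl43, Mrps6 and Mrpl9 fell and Mrps27 rose. In such bulk samples, fewer cells of a type and less RNA per cell cannot be told apart. Among all tested genes 13.6% were called higher and 4.46% lower. At an unadjusted p under 0.05 stood 13 members (16.9%), against 34.7% of all genes.

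Mrpl43 encodes a mitochondria-specific protein of the large subunit, and its gene lies at chr19:45004829-45006442 on the minus strand. It had 24.7, 22.2, 22.9 and 23.9 FPKM after fixed morphine, against 40.1, 42.9, 53.2 and 60.2 FPKM after fixed saline. Every morphine library was lower than every saline library, and the morphine libraries lay close together. The difference was -1.02 ± 0.25 in log2(FPKM + 1) (SE, n = 4 each), with a limma adjusted p of 0.0155. The 2 naive libraries, at 20.7 and 20.5 FPKM, lay below all fixed morphine libraries.

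Mrps6 encodes a small-subunit protein with a bacterial counterpart and lies at chr16:92058270-92112227 on the plus strand. It had 4.80, 4.54, 7.06 and 3.95 FPKM after fixed morphine, against 7.15, 13.8, 20.7 and 18.5 FPKM after fixed saline. The groups did not overlap, but Control 3, the lowest saline library at 7.15 FPKM, was close to the highest morphine library at 7.06 FPKM. The difference was -1.33 ± 0.34 (SE, n = 4 each; limma adjusted p = 0.0200). Naive libraries had 4.64 and 4.14 FPKM, inside the range of fixed morphine.

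Mrpl9, at chr3:94443318-94451130 on the plus strand, encodes a large-subunit protein with a bacterial counterpart. Its values were 10.5, 13.4, 13 and 8.63 FPKM after fixed morphine, against 20.3, 18.6, 19.6 and 17.5 FPKM after fixed saline. The groups were clearly apart. The difference was -0.71 ± 0.20 (SE, n = 4 each; limma adjusted p = 0.0297), and the naive libraries had 8.71 and 10.7 FPKM.

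Mrps27, at chr13:99344786-99415562 on the plus strand, encodes a mitochondria-specific small-subunit protein of the pentatricopeptide repeat family, whose members bind RNA. It had 9.27, 12.5, 17.1 and 7.75 FPKM after fixed morphine, against 4.39, 5.63, 3.58 and 6.43 FPKM after fixed saline. Here every morphine library was higher. The difference was 1.04 ± 0.31 (SE, n = 4 each; limma adjusted p = 0.0352), and the naive libraries had 7.42 and 10.7 FPKM.

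**Figure D3:**
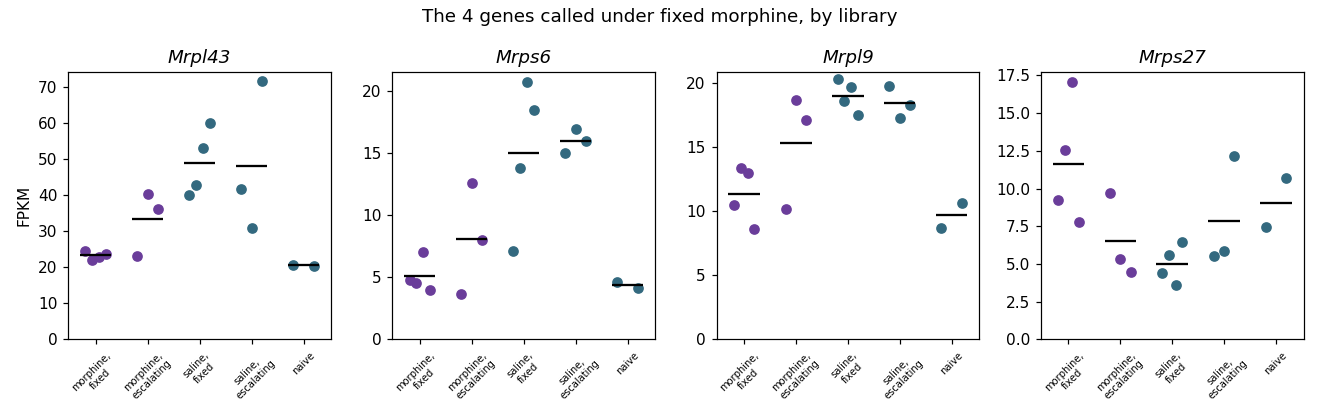
FPKM of Mrpl43, Mrps6, Mrpl9 and Mrps27 in each library (points) and the group means (bars), with morphine groups left and controls right. Fixed morphine lies below fixed saline for the first 3 genes and above it for Mrps27, and the naive mean lies nearer to that of fixed morphine than to that of fixed saline in each panel.

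Against the naive libraries these differences were small. In an added comparison of fixed morphine with the naive libraries, none of the 77 genes was called by limma, and the differences were 0.17 for Mrpl43, 0.15 for Mrps6, 0.20 for Mrpl9 and 0.29 for Mrps27. No gene of the whole table was called in it either, and it rests on 2 naive libraries. The calls also moved with single libraries. No member was called without Control 6 or without fixed morphine replicate 2, 1 without Control 5, 2 without Control 4 or without fixed morphine replicate 3, 3 without fixed morphine replicate 1 or 4, and 8 without Control 3. The share of all genes called ran from 6.44% without fixed morphine replicate 2 to 18.4% without Control 3, and the members' share was below it in each of the 8 fits. Mrpl43 kept its call in 6 of the 8 and Mrpl9 in 0.

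Exons of the 4 called genes overlap those of other genes. Twnk, which overlaps Mrpl43 and is listed as Peo1, had at most 4.01 FPKM in any library, Slc5a3, which overlaps Mrps6, at most 1.77 FPKM, and Oaz3, which overlaps Mrpl9, at most 0.438 FPKM. The gene overlapping Mrps27, 6430562O15Rik, was listed at 0 throughout. Summed neutrophil markers were 1645 to 17017 FPKM after fixed morphine and 6847 to 27717 FPKM after fixed saline. All 9 of the tested neutrophil markers had negative differences, and 2 of them, Camp and S100a8, were called lower. The part of these cells and of the depth difference in the results was not tested.

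Most other members had a negative difference under fixed morphine without passing the test. Of the 77, 58 had a negative difference and 19 a positive one, and the median was -0.25, against 0.22 over all genes tested. Against the naive libraries the direction turned: 66 of the 77 differences were positive, with a median of 0.22, against 0.23 over all genes. Against fixed saline, the members' median thus lay 0.46 below that of all genes. It lay between 0.46 and 0.51 below it when the table was rescaled in 3 other ways. With values rescaled to a common sum, the members' own median became 0.04 and that of all genes 0.53. The small-subunit median was -0.29 and the large-subunit median -0.24. The bacterial-counterpart genes had a median of -0.32 and the mitochondria-specific genes -0.22.

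Next in order of p came Mrpl23, with 28.6, 28.5, 35.1 and 21.0 FPKM after fixed morphine, against 40.1, 57.2, 89.1 and 41.0 FPKM after fixed saline. The groups did not overlap, yet the adjusted p was 0.0559 by limma. Mrps24 and Mrpl24 also did not overlap and had limma adjusted p-values of 0.0576 and 0.0612. In all, 6 members lay below and 2 above the saline range without overlap, against 7.49% and 22.1% of tested genes. Members of the stalk that recruits translation factors had small differences: -0.05 ± 0.32 for Mrpl12, -0.06 ± 0.23 for Mrpl10 and -0.37 ± 0.26 for Mrpl11, which forms the stalk base. Mrps12, the counterpart of the bacterial decoding-centre protein, had a difference of -0.53 ± 0.26, and Mrps5 had 0.47 ± 0.31 (SE, n = 4 each). Mrps30 had 0.04 ± 0.20 and Mrps36 had -0.35 ± 0.42. None of these 7 passed.

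Genes that work with the mitochondrial ribosome were read from lists of its remaining proteins, its assembly factors and its translation factors. The counts of these lists stand against the 13.6% of all genes called higher and the 4.46% called lower in the same comparison. Of 6 tested ribosomal proteins without an Mrpl or Mrps symbol, 1 rose under fixed morphine: Ptcd3, another pentatricopeptide protein of the small subunit, averaged 10.2 FPKM after fixed morphine and 4.20 FPKM after fixed saline (difference 1.08 ± 0.26, limma adjusted p = 0.0162). Of 27 assembly and rRNA modification factors, 2 rose and 1 fell. The protease Lonp1 averaged 16.9 FPKM after fixed morphine and 7.23 FPKM after fixed saline, and the RNA helicase Dhx30 averaged 20.5 FPKM after fixed morphine and 10.3 FPKM after fixed saline. Ngrn, needed for the stability of the large ribosomal RNA, fell to 9.14 FPKM after fixed morphine, against 19.6 FPKM after fixed saline (difference -1.01 ± 0.18, limma adjusted p = 0.00606).

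Of 14 translation factors, 3 rose and 1 was called lower. The elongation factor Gfm1 averaged 13 FPKM after fixed morphine and 5.68 FPKM after fixed saline, and the mRNA-binding protein Lrpprc averaged 17.1 FPKM after fixed morphine and 8.04 FPKM after fixed saline. Taco1, which acts in the translation of a cytochrome oxidase subunit, averaged 2.75 FPKM after fixed morphine and 1.32 FPKM after fixed saline. The gene called lower was Slirp, the partner of Lrpprc. Slirp was listed at 0 in all 4 fixed morphine libraries, against 24.0 to 64.5 FPKM in the 4 fixed saline libraries, and it was also listed at 0 in 6 libraries of 6 other groups. These included 1 of the 2 naive libraries, while the second had 29.2 FPKM. Here too a 0 may be a failed estimate as well as an absence of reads. The list medians were -0.16 for the remaining ribosomal proteins, 0.03 for the assembly factors and 0.07 for the translation factors. Nuclear genes for respiratory chain and ATP synthase subunits had a median of -0.38 over 79 tested genes. Of these, 1 was called higher and 7 lower, against 13.6% and 4.46% of all genes. Genes with a symbol beginning Rpl or Rps, the Rps6k kinases included, had a median of -0.46 over 96.

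Escalating morphine against escalating saline gave 0 called members, where 0.0340% of all genes were called. The median of the 77 differences was -0.29, against 0.16 over all genes, and 62 members had a negative difference. The members' median was -0.10 without Control 9 and -0.15 without escalating morphine replicate 1. The medians were -0.28 for the small and -0.27 for the large subunit. At an unadjusted p under 0.05 stood 8 members (10.4%), against 19.2% of all genes. In all, 10 members lay wholly below the saline range and 0 above it, against 5.02% and 13.3% of tested genes. The lowest p was that of Mrps14, a small-subunit protein with a bacterial counterpart, with 12.5, 15.7 and 15.2 FPKM after escalating morphine, against 21.2, 28.0 and 24.6 FPKM after escalating saline. The groups did not overlap. Its difference was -0.72 ± 0.21 (SE, n = 3 each; limma adjusted p = 0.117). Mrps22, Mrpl48, Mrpl22 and Mrps6 followed, also without overlap, with limma adjusted p-values of 0.122, 0.122, 0.159 and 0.188. Mrps6 had 3.67, 12.6 and 7.99 FPKM after escalating morphine, against 15.1, 17.0 and 16.0 FPKM after escalating saline.

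The fixed response minus the escalating response was tested as an interaction. It called 0 members, against 0.00850% of all genes, and its median was 0.00 over the members and 0.06 over all genes. Mrps14 had the lowest p, with a difference of 0.81 ± 0.28 between the responses and a limma adjusted p of 0.318. The fall of Mrpl43, Mrps6 and Mrpl9 under the fixed regimen was thus not shown to differ between the regimens.

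The kinds of control were compared in a fit of all 30 libraries. Between the 7 saline libraries and the 2 naive libraries 0 members were called, against 0.604% of all genes, while 64 of 77 differences were positive. Their median was 0.37, against -0.04 over all genes. The lowest adjusted p-values belonged to Mrps6 and Mrpl43. Mrps6 averaged 15.5 ± 4.31 FPKM in the saline libraries (SD, n = 7) and 4.39 ± 0.36 FPKM in the naive libraries (SD, n = 2), with a difference of 1.57 ± 0.41 and a limma adjusted p of 0.0694. Mrpl43 averaged 48.7 ± 13.9 FPKM in saline and 20.6 ± 0.17 FPKM in naive libraries, with a difference of 1.15 ± 0.31 and a limma adjusted p of 0.0831. Mrps15, Mrpl9 and Mrpl39 came next, with limma adjusted p-values of 0.158, 0.162 and 0.219. In all, 10 members lay wholly above the naive range, against 6.07% of tested genes, and none below. Fixed saline against escalating saline gave 0 called members and 0% of all genes called. The median was 0.08, against 0.12 over all genes.

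After nerve injury no member was called at any time in any model, set against the 9 controls taken as 1 group. The share of all genes called was 0.0170% at SNT 1 dpi, 0% at SNT 2 and 4 dpi, 0.204% at SNT 7 dpi, 0.00850% at CCI 2 dpi, and 0% at CCI 7 dpi and SNI 7 dpi. At an unadjusted p under 0.05 the members numbered 14, 1, 0 and 7 at SNT 1, 2, 4 and 7 dpi, 1 and 2 at CCI 2 and 7 dpi, and 0 at SNI 7 dpi. At SNT 1 dpi these 14 made 18.2% of the members, where 16.1% of all genes passed the same mark, and the 7 at SNT 7 dpi made 9.09%, against 8.88%. At the other times the members' share was at most 2.60%, against 7.33% and 2.34% of all genes at SNT 2 and 4 dpi, 10.7% and 9.75% at CCI 2 and 7 dpi, and 4.06% at SNI 7 dpi.

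The medians of the set are given as a description, and their difference between injuries was not tested. Where CCI and SNT are compared directly, the test was run on single genes and not on the medians. The median member difference was 0.26 at SNT 1 dpi, 0.17 at SNT 2 dpi, 0.09 at SNT 4 dpi and 0.27 at SNT 7 dpi, against -0.25, -0.23, 0.03 and 0.03 over all genes. It was 0.05 at CCI 2 dpi, -0.11 at CCI 7 dpi and -0.29 at SNI 7 dpi, against 0.17, 0.17 and 0.01 over all genes. Positive differences were found for 57, 53, 50 and 48 of the 77 genes at the 4 SNT days, for 42 and 28 at CCI 2 and 7 dpi, and for 11 at SNI 7 dpi. All these comparisons share the same controls, and the negative medians depended on the saline libraries among them: with the naive controls alone the median was 0.21 at CCI 7 dpi and 0.017 at SNI 7 dpi, so that all 7 medians were positive. Single libraries carried part of this: without SNT 2 dpi replicate 2 the median at that day was -0.14, without SNT 7 dpi replicate 1 it was -0.02, and without CCI 7 dpi replicate 2 it was 0.15.

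**Figure D4:**
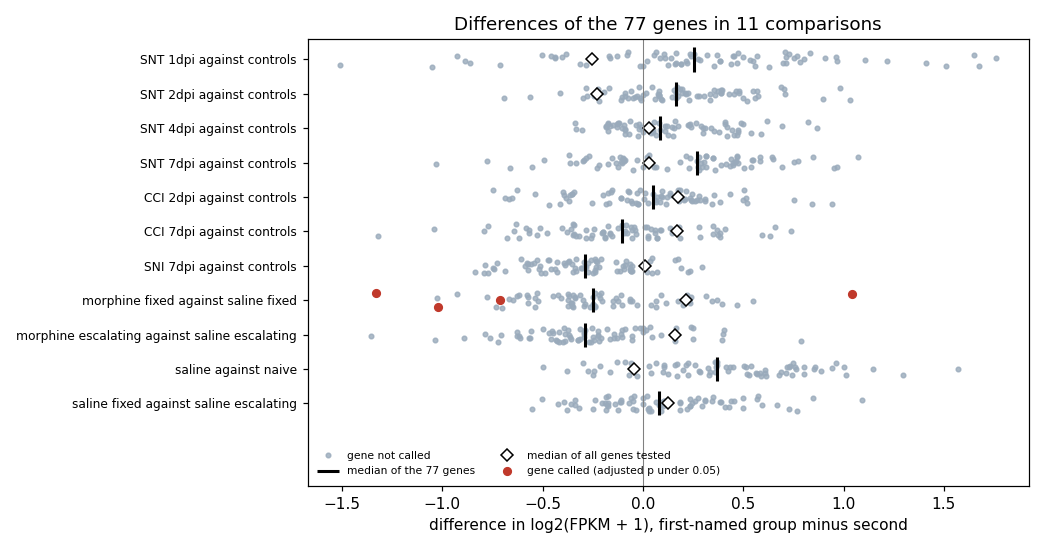
Each small point is 1 gene's difference in log2(FPKM + 1), the black bar is the median of the 77 genes and the diamond the median of all genes tested, with 1 comparison to a row. The bar lies right of the diamond at SNT 1, 2, 4 and 7 dpi and for saline against naive, and left of it for CCI, SNI and both morphine regimens.

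At SNT 1 dpi the member with the lowest p was Mrpl54, a mitochondria-specific large-subunit gene. It had 116 and 31.8 FPKM, against a lowest value of 10.9, a median of 18.9 and a highest value of 36.8 FPKM in the controls. The first injury library was far above all controls and the second was inside their range. The difference was 1.67 ± 0.43 (SE, n = 2 against 9; limma adjusted p = 0.129). Mrpl52 had 166 and 184 FPKM at SNT 1 dpi, against 16.6, 43.5 and 161 FPKM as the lowest, median and highest control. Both injury libraries were above every control, and the limma adjusted p was 0.158. Mrpl34, Mrps21 and Mrpl53 also stood among the 5 lowest p-values, and each had its higher value in replicate 1. Mrpl12, whose protein binds mitochondrial RNA polymerase as well as the ribosome, had 60.5 and 42.0 FPKM at SNT 1 dpi, against 13.1, 26.7 and 40.7 FPKM as the lowest, median and highest control (difference 0.97 ± 0.37, limma adjusted p = 0.22). Above the controls without overlap lay 4 members and below them 1, against 1.90% and 4.33% of tested genes.

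At SNT 7 dpi the lowest p was that of Mrps2, a small-subunit gene with a bacterial counterpart. It had 29.4 and 19.4 FPKM, against 9.86, 12.8 and 17.7 FPKM as the lowest, median and highest control. The groups did not overlap, and the difference was 0.85 ± 0.31 (SE, n = 2 against 9; limma adjusted p = 0.448). At SNT 1 dpi the same gene had 5.97 and 9.17 FPKM, below every control. In a test among the 4 SNT days 0 members were called, against 0.00850% of all genes, and Mrps2 had the lowest adjusted p, 0.356 by limma. The following members were Mrps30, Mrpl54, Mrpl24 and Mrpl1. Mrps30 had 5.75 and 9.95 FPKM at SNT 1 dpi, 6.86 and 7.67 at SNT 2 dpi, 11.6 and 10.4 at SNT 4 dpi, and 24.6 and 15.5 at SNT 7 dpi. These values were lower on the first 2 days than on day 7 without overlap, although the test was not passed.

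In the partial injuries the largest single difference belonged to Mrps6 at CCI 7 dpi. It had 4.81 and 3.30 FPKM there, against 4.14, 15.1 and 20.7 FPKM as the lowest, median and highest control, with a difference of -1.32 ± 0.50 (SE, n = 2 against 9; limma adjusted p = 0.364). The injury libraries overlapped the naive ones. Mrps27 had 15.4 and 11.5 FPKM at CCI 2 dpi, against 3.58, 5.89 and 12.1 FPKM as the lowest, median and highest control, and it had the lowest p there (limma adjusted p = 0.458). Mrps16 had 11.5 FPKM in both SNI libraries, against 11.7, 23.0 and 38.0 FPKM as the lowest, median and highest control, with a limma adjusted p of 0.999. Mrpl43 had 23.9 to 25.6 FPKM in the 4 CCI libraries, and 24.7 and 23.4 FPKM in the SNI libraries, against 22.2 to 24.7 FPKM after fixed morphine. The CCI 7 dpi replicate 2 library, at 25.6 FPKM, lay above the fixed morphine range and the other 5 inside it.

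CCI was set against SNT directly at the 2 shared days. At 2 dpi 0 members were called and 0% of all genes, with a member median of -0.13, against 0.42 over all genes. This direction rested on 1 library, since the members' median was 0.16 without SNT 2 dpi replicate 2, and it was 0.24 with values rescaled to a common sum. Mrps30 had the lowest p, averaging 15.5 ± 1.76 FPKM at CCI 2 dpi and 7.27 ± 0.57 FPKM at SNT 2 dpi (SD, n = 2 each; limma adjusted p = 0.241). At 7 dpi 0 members and 0% of all genes were called, and the medians were -0.32 over the members and 0.15 over all genes. Mrps18b and Mrps2 had the lowest p there, both with a limma adjusted p of 0.702.

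The members' differences are set against transcript length for 3 comparisons: SNT 1 dpi, fixed morphine, and saline against naive. The genes were split into 26 short (463 to 1056 bases), 25 middle (1068 to 1764 bases) and 26 long ones (1849 to 7300 bases). At SNT 1 dpi the median difference was 0.59 for the short, 0.32 for the middle and 0.09 for the long members, against 0.53, 0.01 and -0.33 for all tested genes of those lengths. Under fixed morphine the medians were -0.34, -0.21 and -0.18 for the members, against -0.47, -0.16 and 0.35 for all tested genes. Saline against naive gave 0.55, 0.33 and 0.32 for the members and 0.53, 0.25 and -0.15 for all tested genes. The short members therefore sat near other short genes in all 3 comparisons, and the long members sat apart from other long genes by 0.43 to 0.53. Outside these 3, the largest gaps of short members from other short genes were 0.26 for CCI against SNT at 2 dpi and 0.24 at CCI 2 dpi. The gaps of long members from other long genes varied widely there. They ran from 0.01 for the fixed minus the escalating response, and 0.11 at SNT 4 dpi, to 0.58 for CCI against SNT at 2 dpi. Across the 77 genes, which are not independent replicates, Spearman's correlation of length with the difference was -0.475 at SNT 1 dpi and 0.238 under fixed morphine, against -0.264 and 0.468 over all tested genes. The next strongest member correlations after SNT 1 dpi were 0.377 for CCI against SNT at 2 dpi, -0.371 at SNT 2 dpi and 0.354 at CCI 7 dpi. Over all tested genes these were 0.339, -0.152 and 0.382. Of the 14 comparisons, 3 gave members and all tested genes opposite signs, all with weak correlations: 0.145 and -0.052 at SNT 4 dpi, 0.111 and -0.049 at SNT 7 dpi, and -0.060 and 0.037 for fixed against escalating saline.

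**Figure D5:**
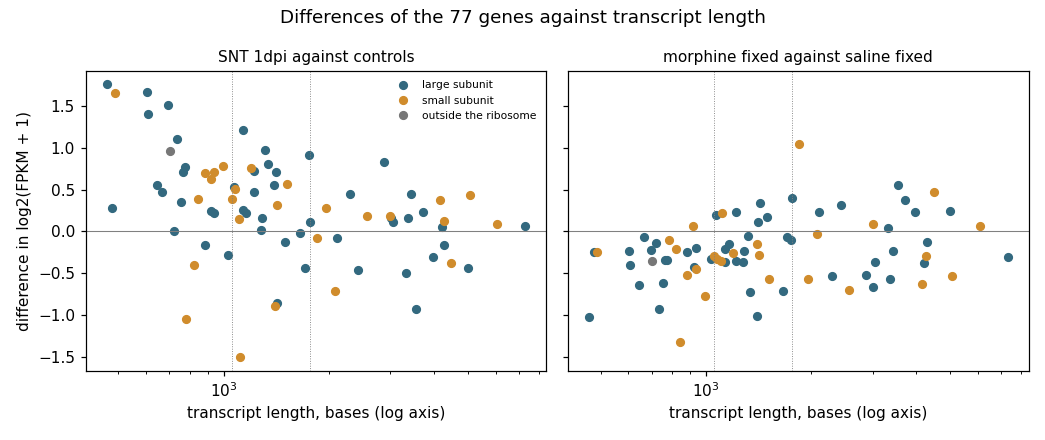
Difference in log2(FPKM + 1) of each of the 77 genes against its transcript length on a log axis, at SNT 1 dpi (left) and under fixed morphine (right), coloured by subunit, with dotted lines between the 3 length classes. Short genes lie highest at SNT 1 dpi, with a median of 0.59, and lowest under fixed morphine, with a median of -0.34.

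The same property differed between libraries. The mean log2(FPKM + 1) of the short members exceeded that of the long ones by 1.61 and 1.80 in the SNT 1 dpi libraries and by 0.88 to 1.03 after fixed morphine, against 1.01 to 1.54 after fixed saline and 0.83 to 0.95 in naive libraries. The gap was smallest in CCI 7 dpi replicate 2, at 0.68. Its part in the differences of single members was not tested.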

How the data were processed

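The table of 30 libraries was deposited by the authors as FPKM. Per the submitters' processing notes, HISAT2 2.0.5.1, Cufflinks 2.2.1, featureCounts 1.4.6 and DESeq2 (no version) were used with build mm10; which tool made the FPKM values, and with which annotation, is not given in the sources used here. Of 24888 rows, 826 with 281 repeated symbols were left out. Genes with at least 1 FPKM in at least 2 libraries (11759) were tested as log2(FPKM + 1) with limma 3.58.1 in R 4.3.3 (trend, Benjamini-Hochberg adjustment over all genes); such differences understate the change of low genes. Injury groups were fitted with the 9 controls as 1 group, morphine with the 7 saline libraries, and kinds of control in all 30 libraries. Named genes were the called members; where none was called, the 5 lowest p-values; the highest, lowest, most and least variable; and a short list of functional interest. Members and lists were chosen with earlier results of these data known. Transcript lengths came from GENCODE vM21 and promoters from RefSeq. The method was tested on simulated data. Replicate numbers were not used to pair libraries in the main fits.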

Additional observations from a re-analysis of the deposited data

Results flagged for a closer look

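In 5 of 234 tests of 77 genes and their mean in 3 groups, 1 library stood apart from the rest of its group by Dixon's test, where chance gives about 1 in 20. Of these, 3 were in the 9 controls, 2 in fixed saline and 0 in fixed morphine. Mrpl55 had 3.52 FPKM and Mrps10 had 1.45 FPKM in Control 7 (escalating saline), and the next lowest controls had 10.4 and 7.23 FPKM. Mrps15 had 11.5 FPKM in naive replicate 1, and the next lowest control had 26.9 FPKM. In fixed saline, Mrpl46 had 9.85 FPKM in Control 3, well below the other 3 libraries, and Mrpl47 had 11.9 FPKM in Control 5, above the next value of 8.55 FPKM. None of the 4 genes called under fixed morphine was among them.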

How the results depend on the processing

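Limits: groups of 2 to 4 libraries, unknown depth and a scaling that was not common to all libraries bound these results. Fixed morphine called 10 members with quantile normalization (15.4% of all genes), 10 with array weights (37%), 2 (Mrpl43 and Mrps6) with all 30 libraries in 1 fit (9.65%), and 0 (0%) with a median of 0.22 with naive in place of fixed saline, where Mrpl43 (0.17), Mrpl9 (0.20) and Mrps6 (0.15) turned direction; these last 2 alternatives were chosen after seeing the data. With TPM rescaling its median was 0.042. Scaling moved the median of all genes there between -0.02 (quantile) and 0.53 (TPM), from 0.22 as deposited. Saline against naive had a median of 0.087 with TPM rescaling and called 9 members with array weights (10.2% of all genes) and 4 without the 3 libraries with the fewest genes (5.47%). CCI against SNT at 2 dpi had medians of -0.55 (quantile), -0.66 (median-ratio), 0.24 (TPM) and 0.16 (without those 3 libraries). SNT 2 dpi had 0.48 (median-ratio) and -0.14, and SNT 7 dpi -0.018, without those 3 libraries. CCI 7 dpi called 1 member, Mrps6, with array weights (9.08%) and with saline controls alone (1.96%).

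Same-numbered libraries did not consistently deviate together (r from -0.43 to 0.22 over 28 pairs of groups, with 4 over 0.1). In groups of 2 libraries this cannot settle whether the numbers pair them. With a replicate block, or equally with naive controls alone, the medians were 0.71, 0.52 and 0.39 at SNT 1, 2 and 4 dpi, 0.36 and 0.21 at CCI 2 and 7 dpi, and 0.017 at SNI 7 dpi, because the naive libraries alone share numbers with the injuries. With the block, fixed morphine called 0 members and no gene at all, with a median of 0.062; only 2 numbers are shared there. No block could be fitted for escalating morphine, the regimen difference or the kinds of control.

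Leaving out 1 library at a time, the called members ran from 0 to 8 at SNT 1 dpi, 0 to 5 at SNT 2 dpi, 0 to 2 at SNT 7 dpi, 0 to 8 under fixed morphine, 0 to 1 for saline against naive, 0 to 6 among SNT days and 0 to 3 for CCI against SNT at 2 and at 7 dpi; the highest SNT counts came without SNT 1 dpi replicate 2, SNT 2 dpi replicate 1 and SNT 7 dpi replicate 2, which leave 1 library assumed to vary like the other groups and call 10.4%, 9.72% and 8.56% of all genes. The highest counts of CCI against SNT came with 15.1% of all genes called at both days, and that among SNT days with 4.35%. Medians ran from -0.39 to -0.15 under fixed morphine, -0.40 to -0.10 under escalating morphine, 0.21 to 0.63 for saline against naive, -0.14 to 0.55 at SNT 2 dpi, -0.018 to 0.41 at SNT 7 dpi, -0.40 to 0.15 at CCI 7 dpi, and, for CCI against SNT, -0.52 to 0.16 at 2 dpi and -0.65 to -0.073 at 7 dpi. The causes were not tested.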

Other observations

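Mrpl43 and Mrpl23 split the libraries in the same way as a gene outside the set. The 14 libraries with the least Cst3, which encodes the secreted protease inhibitor cystatin C, were also the 14 with the least Mrpl43 and the 14 with the least Mrpl23. In those 14, Cst3 ran from 10120 to 20827 FPKM, Mrpl43 from 20.5 to 25.6 FPKM and Mrpl23 from 19.5 to 35.4 FPKM. In the other 16, Cst3 ran from 39503 to 95123 FPKM, Mrpl43 from 31.0 to 93.6 FPKM and Mrpl23 from 37.5 to 138 FPKM. For Mrps6, 12 of the 14 lowest libraries were among the same 14. The 14 were all 4 fixed morphine libraries, all 4 CCI libraries, both SNI libraries, both naive libraries, SNT 7 dpi replicate 2 and escalating morphine replicate 1, so they held libraries of several treatments and of naive mice. All saline libraries were among the other 16, so fixed morphine and fixed saline lay wholly on opposite sides of the split. The saline and the naive libraries did so too, as did the CCI 2 dpi and the SNT 2 dpi libraries. A difference in any of these comparisons therefore cannot be told apart from the split. The share of all tested genes that split the libraries in this way is not given here. The pattern was noticed in these data, the labels give no run or date for the libraries, and its cause was not tested.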
